A study of Saccharomyces cerevisiae S288C with 18 samples.

Results

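The RNAs that co-purified with Upf1-TAP were compared with those that co-purified with Rpl16a-TAP in the budding yeast Saccharomyces cerevisiae. The comparison uses 6 of the 18 libraries of the series, chosen by the bait named in the labels, with 3 replicates of each purification. Both strains derive from BY4741 and carry the TAP tag (calmodulin binding peptide, TEV protease site and Protein A) at the C-terminal end of the bait at its own locus, with the HIS3MX6 marker (nam7(upf1)-TAP::HIS3MX6 and rpl16a-TAP::HIS3MX6). Cells grew exponentially in YPD at 30 °C, the tagged protein was collected in 1 step on IgG-coupled magnetic beads, and ribosomal RNA was removed with RiboZero or Ribominus before stranded libraries were made. Each tagged strain is a single line, and the tagged proteins replace the untagged ones, so that a line and its tag cannot be told apart from its bait. The same purification from untagged BY4741 (control, 3 libraries) and the RNA of the total extract (input, 3 libraries) give the background.

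Upf1, the product of NAM7, is an RNA helicase and the central factor of nonsense-mediated mRNA decay (NMD), which degrades RNAs on which a ribosome terminates too early or far from the usual context of a stop codon. Rpl16a belongs to the large subunit of the ribosome, so that Rpl16a-TAP collects ribosomes with the RNAs they occupy. RNAs known as NMD substrates in yeast include unspliced pre-mRNAs that reach the cytoplasm, mRNAs with upstream open reading frames, transcripts of interrupted genes, and many XUTs and SUTs, non-coding RNAs that accumulate without the exonuclease Xrn1 or are found as stable unannotated transcripts.

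The libraries held 7822345 to 13183470 reads for Upf1-TAP and 2828608 to 14460329 for Rpl16a-TAP. Rpl16a-TAP replicate 3 stood apart, with the fewest reads and 67.7% of them on ribosomal RNA features, against 0.777% and 0.211% in replicates 1 and 2. Upf1-TAP replicate 3 had 7.29%, and its replicates 1 and 2 had 0.126% and 0.316%. The main counts are therefore given with and without Rpl16a-TAP replicate 3. The labels do not say which library was depleted with which reagent, and the part of depletion in the results was not tested. Against the control purification, Upf1-TAP had 2488 features higher and 1751 lower, whereas Rpl16a-TAP had 7 higher and 31 lower (5 and 16 without its replicate 3). In that last pair of comparisons 1766 and 1794 features had an unadjusted p under 0.05.

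Levels are given in CPM, the read count relative to the library's total, scaled by TMM, a method that sets the bulk of features equal between libraries, and differences as the log2 fold change of Upf1-TAP over Rpl16a-TAP with its standard error (SE). Of 12582 features with enough reads, 3025 were higher in Upf1-TAP (24.0%) and 2200 were lower (17.5%) in edgeR's quasi-likelihood test with Benjamini-Hochberg adjustment, n = 3 libraries in each group. Without Rpl16a-TAP replicate 3 the counts were 2826 and 2178. Directions are relative to the TMM scaling, under which the median of all features was 0.13. Under total count scaling that median moved to 1.56, and 6307 features were higher and 54 lower. The share of calls that were higher went from 57.9% to 99.2%. Total counts include ribosomal RNA, which took 67.7% of Rpl16a-TAP replicate 3, and this scaling was not repeated without that library. Over all features, 30.2% had every Upf1-TAP library above every Rpl16a-TAP library and 19.7% had every one below. For reading frames and exons alone, the background was 1156 of 5928 higher (19.5%) and 1685 lower (28.4%).

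**Figure D1:**
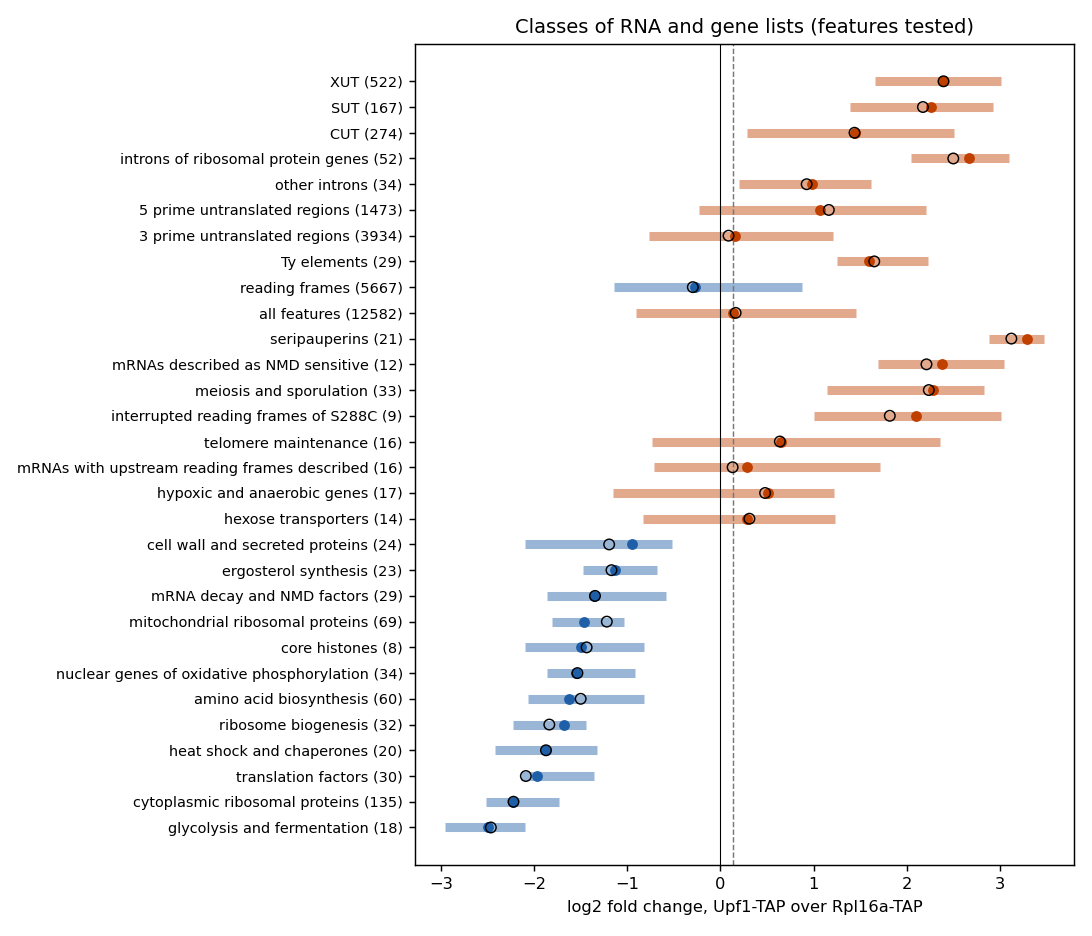
Log2 fold change of Upf1-TAP over Rpl16a-TAP for classes of RNA and gene lists, with the number of features tested in brackets. Filled points are medians, bars run from the first to the third quartile, open circles are medians without Rpl16a-TAP replicate 3, and the dashed line is the median of all features (0.13). XUT, SUT, introns and the seripauperin list lie to the right, and glycolysis, ribosomal proteins and translation factors to the left.

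XUTs and SUTs were mostly higher with Upf1. Of 1658 XUT features, 522 were tested and 420 had enough reads in libraries other than Upf1-TAP; of these 420, 287 rose and 1 fell, with a median log2 fold change of 2.31. Of 847 SUTs, 140 had enough reads outside Upf1-TAP, 91 rose and 0 fell (median 2.21). CUTs, cryptic transcripts that the nuclear exosome degrades, rose in 53 of 189 cases and fell in 5 (median 1.14). Of the 11600 features of any class with enough reads outside Upf1-TAP, 2642 rose and 2197 fell (median 0.005). Among all features tested 24.0% were higher. Over all tested members, 356 XUTs, 103 SUTs and 88 CUTs rose, and 343, 97 and 84 did without Rpl16a-TAP replicate 3. Without replicate 1 of both purifications 174, 57 and 45 rose, without replicate 2 of both 153, 46 and 34, and without Rpl16a-TAP replicate 2 alone 223 XUTs and 52 CUTs. The share of all reads on XUT and SUT was 1.43%, 1.28% and 0.730% in the 3 Upf1-TAP libraries and 0.111%, 0.0920% and 0.0255% in the Rpl16a-TAP libraries. The 2 groups do not overlap. All reads here include ribosomal RNA, which took 67.7% of Rpl16a-TAP replicate 3.

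SUT103 had 171, 171 and 119 CPM with Upf1 and 13.8, 14 and 4.26 CPM with Rpl16a. All Upf1-TAP libraries lie above all Rpl16a-TAP libraries, and the log2 fold change was 3.71 ± 0.42 (SE, adjusted p = 2.2e-05 in edgeR). XUT_12F-84, which had the largest rise among XUT, SUT and CUT with a mean of at least 2 CPM, had 75.3, 84.9 and 91.2 CPM against 4.01, 1.92 and 1.42 CPM, a log2 fold change of 4.94 ± 0.47. The next in size were XUT_8F-245 (4.83), XUT_15F-1 (4.72) and XUT_9F-220 (4.69), which had no reads in 1 or 2 of the Rpl16a-TAP libraries. Among XUT, SUT and CUT together the largest falls were in CUTs, of which CUT_GIM_0154 had 0.966, 2.92 and 0.863 CPM with Upf1 and 19.1, 19.5 and 24.2 CPM with Rpl16a (−3.67 ± 0.80). CUT_GIM_1270 (−2.92), CUT146 (−2.16) and CUT221 (−1.55) followed. In the deposited table all 812 XUT features of the reverse strand have 0 reads in every library, as does SUT141, which lies near PFK1 on the other strand, so that the XUT results cover the forward strand only. Of 847 SUTs 574 have no read in any library, as do 1523 of 2240 CUTs. The SUT and CUT results thus cover only part of each class.

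Intron-containing RNA was higher with Upf1 relative to spliced RNA. The ratio of intron to exon reads is taken within a library, so that it does not depend on the scaling. If exon 1 is read on into the intron, a stop codon appears in frame in 81 of the 84 introns tested. The windows below show where that happens for the 6 ribosomal protein introns with the most reads and for HAC1, with the stop codon in capitals (RefSeq R64, plus strand, 5′ to 3′, up to 30 bases ending at the stop).

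RPL28, chrVII:310994-311023: aagcacagaggtcacgtctcaggtatgTAG
RPS13, chrIV:579470-579499: cacagtgccgtatgtttattaacaccaTAG
RPS9B, chrII:604508-604525: atgccaagtacgtatTAG
RPL26B, chrVII:555824-555853: tctctaggtatgtttggaggatacgaaTAA
RPL36A, chrXIII:651145-651168: atgaccgttaagacaggtatgTGA
RPL42A, chrXIV:331322-331336: atgggtatgttaTAA
HAC1, chrVI:75842-75871: gtgattacgatgaccaggaaactacagTGA

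In the 6 ribosomal protein genes the stop comes after 4 to 18 codons, with at most 20 intron bases before it. HAC1 encodes the activator of the unfolded protein response, its intron lies near the 3′ end of the coding sequence, and its stop comes after 230 codons. This intron is removed by Ire1 and a tRNA ligase in the cytoplasm, not by the spliceosome.

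The RPL28 intron had 858, 799 and 935 CPM with Upf1 and 51.3, 26.8 and 56.9 CPM with Rpl16a, a log2 fold change of 4.28 ± 0.43 (adjusted p = 1.1e-05 in edgeR). Its exons had 1110, 1435 and 1546 CPM against 2651, 2642 and 9314 CPM (−1.84 ± 0.59), and the adjusted p of 0.019 became 0.17 without Rpl16a-TAP replicate 3. Intron and exons thus moved in opposite directions in this gene, which encodes a protein of the large subunit, although the sign of the exon change turned to 0.14 under total count scaling. Per 100 exon reads, the intron had 77.3, 55.7 and 60.5 reads in the Upf1-TAP libraries and 1.94, 1.02 and 0.611 in the Rpl16a-TAP libraries. Input had 4.48, 3.90 and 2.50, and the control purification 7.90, 3.75 and 3.42. The log2 ratio differed by 5.90 ± 0.64 (limma, adjusted p = 4.5e-08), and the exact permutation test of 3 against 3 libraries gave its smallest possible two-sided p, 0.1.

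Among all 84 introns the ratio was higher with Upf1 in 65 (77.4%) and lower in 1 (1.19%), with a median difference of 3.65 on the log2 scale. Without Rpl16a-TAP replicate 3 it was higher in 63 and lower in 0 (median 3.50). Of the 81 introns with a stop in frame 63 were higher in the main fit, and of the 3 without one 2 were. All 51 introns of ribosomal protein genes were higher, with differences from 1.88 to 6.28 and a median of 4.86. In 36 of them the intron rose and the exons fell in level under TMM scaling. The exon fall depends on that scaling: under total count scaling 6 of 135 ribosomal protein genes fell and 3 rose. In the other genes 14 of 33 were higher and 1 lower (median 1.20). The introns of Crick-strand genes could not be assessed, as 133 of 135 have no read in any library. The filter kept introns that reach 10 reads in 3 libraries, which for some low introns happens only with Upf1. All 52 ribosomal protein introns tested for level had enough reads outside Upf1-TAP. Of 34 other introns tested for level 27 did, and 8 of these 27 rose. The ratio counts were not restricted in this way.

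The largest differences were in RPS17A (6.28 ± 0.73), RPL35B (6.19 ± 0.69) and RPL21A (6.09 ± 0.68), each in a ribosomal protein gene. Rpl16a-TAP replicate 3 had 1 intron read of RPS17A, 0 of RPL35B and 2 of RPL21A, and without it the differences were 5.33, 5.68 and 5.83 and the largest was that of RPS9B (6.17). In RPL21A the intron had 17.5, 12.7 and 16.6 reads per 100 exon reads with Upf1 and 0.299, 0.242 and 0.127 with Rpl16a, with no overlap. RPS13 (6.0 ± 0.61), RPS9B (5.86 ± 0.63), RPL42A (5.73 ± 0.64), RPL36A (5.46 ± 0.71) and RPL26B (4.86 ± 0.78) were close in size. In RPS13 the intron had 88.9, 73.7 and 196 reads per 100 exon reads with Upf1, so that in replicate 3 it had more reads than the exons, and 2.47, 1.43 and 1.26 with Rpl16a.

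YRA1, which encodes an mRNA export factor and controls its own splicing, had a difference of 2.61 ± 0.54 (adjusted p = 0.00012 in limma), which was 1.77 without Rpl16a-TAP replicate 3, where the intron had 6 reads. EFB1, an elongation factor gene, had 1.83 ± 0.75 (adjusted p = 0.030, and 0.31 without Rpl16a-TAP replicate 3, which had no intron read). HAC1 had 23.7, 24.8 and 24.7 intron reads per 100 exon reads with Upf1 and 21.8, 21.3 and 21.1 with Rpl16a. The groups do not overlap, but the log2 difference of 0.19 ± 0.37 missed the threshold in limma (adjusted p = 0.65). GCR1, which encodes an activator of glycolytic genes, had a ratio difference of −0.47 ± 0.58 (adjusted p = 0.46), while both its intron (1.51) and its exons (1.86) rose. The exon call was lost without Rpl16a-TAP replicate 3 (adjusted p = 0.085). TDA5 was the only intron whose ratio fell (−2.13 ± 0.79, adjusted p = 0.017). It had 57 intron reads in the 6 libraries, and the call was lost without Rpl16a-TAP replicate 3 (adjusted p = 0.19).

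**Figure D2:**
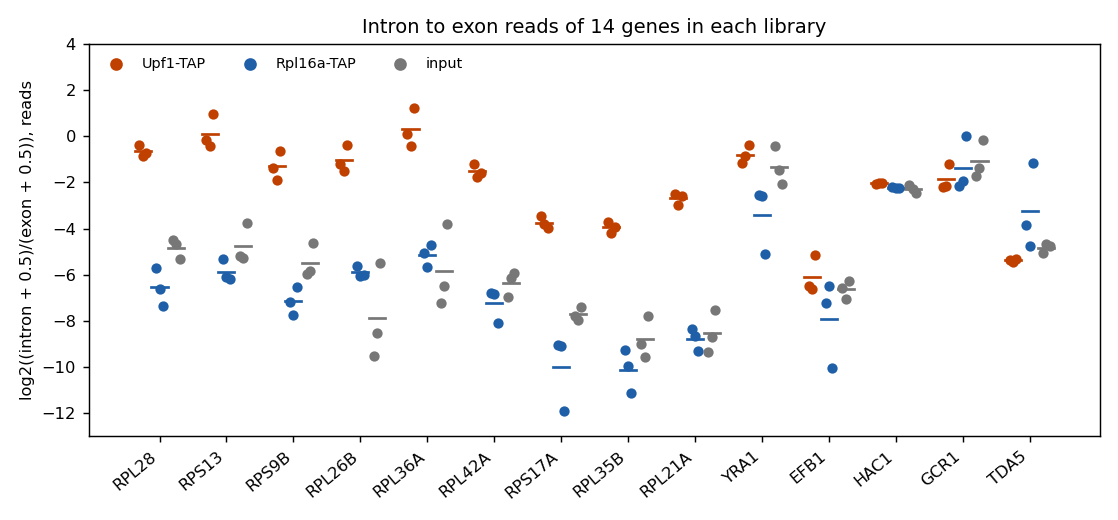
Log2 of intron over exon reads (0.5 added to each) in each library for 14 genes, for Upf1-TAP, Rpl16a-TAP and input, with a short line at the mean of 3 libraries. In the 9 ribosomal protein genes the Upf1-TAP points lie above all Rpl16a-TAP points, whereas for HAC1 all 9 points lie between −2.48 and −2.01.

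mRNAs described as NMD sensitive rose in 10 of 12 cases and fell in 0 (median 2.38; 10 without Rpl16a-TAP replicate 3), and all 12 had enough reads outside Upf1-TAP. CPA1, a subunit of carbamoyl phosphate synthetase whose mRNA has an arginine-sensing upstream reading frame, had 938, 1336 and 624 CPM with Upf1 and 171, 119 and 37.0 CPM with Rpl16a (3.13 ± 0.75). ALR1, a magnesium transporter, had 576, 429 and 281 CPM against 105, 102 and 76.8 CPM (2.17 ± 0.50). In both the lowest Upf1-TAP library lies above the highest Rpl16a-TAP library.

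The telomere genes of this list rose together: STN1 (3.42 ± 0.38), a protein of the telomere cap, EST2 (3.27 ± 0.62), the catalytic subunit of telomerase, EST3 (2.87 ± 0.41), EST1 (2.43 ± 0.48) and TEN1 (2.33 ± 0.50). STN1 had 141, 113 and 151 CPM against 16.2, 11.5 and 8.53 CPM. Over the 16 telomere maintenance genes, 6 rose and 2 fell, so that the change did not extend to the list. RAP1, which binds telomere repeats and ribosomal protein promoters, fell (−1.72 ± 0.42), as did RIF1 (−0.91 ± 0.35), whose sign turned under total count scaling.

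The transcription activator gene PPR1 (1.70 ± 0.51), the kinetochore gene CTF13 (1.31 ± 0.41) and the nitrilase gene NIT1 (3.01 ± 0.36) rose too. SPT10 had 1.27 ± 0.51 (adjusted p = 0.055, and 0.00023 with a replicate block). CCW22 had 180, 208 and 16.1 CPM with Upf1 and 60.1, 49.4 and 9.95 CPM with Rpl16a. The groups overlap through the replicates 3, and the fold change of 1.69 ± 0.97 did not pass the test (adjusted p = 0.17). With a replicate block it did (adjusted p = 0.020).

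Reading frames listed as interrupted in the reference strain were also higher with Upf1: 6 of the 9 tested rose and 0 fell (median 2.11). Without Rpl16a-TAP replicate 3 5 rose, and without replicate 1 of both purifications 3. The first stop codon in frame is shown in capitals for FLO8, an activator of flocculation and filamentous growth that is interrupted in this strain, for SDL1, a serine deaminase pseudogene, and for CCW22, a cell wall protein pseudogene (RefSeq R64, coding strand).

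FLO8, chrV:377189-377218, minus strand: acacctcaaggctttttgtatgaatggTAG
SDL1, chrIX:29386-29415, plus strand: gaagcagatgaatacttgaggcacgaaTGA
CCW22, chrIV:721281-721310, minus strand: accgtcaccgtaaatgacgttatcactTAA

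The stop follows 141 codons in FLO8, 127 in SDL1 and 66 in CCW22, and 1974, 633 and 210 bases of the annotated locus lie beyond it. FLO8 had 143, 98.1 and 46.4 CPM with Upf1 and 26.3, 23.6 and 5.69 CPM with Rpl16a (2.27 ± 0.65, adjusted p = 0.011 in edgeR). SDL1 had 26.6, 28.3 and 38.6 CPM against 1.80, 2.58 and 5.69 CPM (3.52 ± 0.47). Neither gene has overlapping groups. YIL165C (3.58 ± 0.46), which forms 1 frame with NIT1 in some other strains, rose, and SDC25 (2.11 ± 0.56), a Ras exchange factor gene, rose as well. The annotated locus of SDC25 has no stop in frame before its end, with 103 codons and 0 bases beyond the stop.

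mRNAs with described upstream reading frames did not move one way: 6 of 16 rose and 2 fell (median 0.28; 5 and 2 without Rpl16a-TAP replicate 3, 6 and 5 with a replicate block). Without replicate 1 of both purifications 3 rose. GCN4, the activator of amino acid synthesis genes, had 2528, 2075 and 1471 CPM with Upf1 and 562, 626 and 371 CPM with Rpl16a (1.96 ± 0.51), without overlap. LEU4, an enzyme of leucine synthesis, fell (−2.45 ± 0.45).

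Meiosis and sporulation genes, which are silent or low in dividing cells, rose in 22 of 33 cases with 0 that fell (median 2.29; 21 without Rpl16a-TAP replicate 3). REC107, which is needed for meiotic double-strand breaks and has an intron, had 91.4, 142 and 43.5 CPM against 11.2, 9.50 and 1.42 CPM (3.44 ± 0.63). ZIP1, of the synaptonemal complex, MSH5, of the crossover pathway, and IME2, a meiotic kinase, rose by 2.24, 2.71 and 2.57. None of the 33 had 10 reads in each of the 6 libraries. The seripauperins, a family of near-identical stress-induced genes near telomeres, rose in all 21 tested cases (20 without Rpl16a-TAP replicate 3), 18 of which had enough reads outside Upf1-TAP. Without Rpl16a-TAP replicate 2 the count was 13, and without replicate 1 or 2 of both purifications it was 12 or 8. PAU18 and PAU6 carry the same counts, so that members of this family are not independent. In this family 3 members have 0 reads in all Rpl16a-TAP libraries, and with these at a floor of 3 reads over the group the median went from 3.29 to 3.05.

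Reading frames are called abundant here if their mean over the 6 libraries compared was at least 20 CPM. A high level in only 1 of the 2 groups can be enough for that. The largest rises among the abundant reading frames included genes of little known function and further meiotic genes. YOL014W had 402, 831 and 1016 CPM with Upf1 and 28.5, 22.2 and 44.1 CPM with Rpl16a (4.61 ± 0.68, adjusted p = 0.00012). ISC10, required for spore formation, had 269, 343 and 218 CPM against 17.8, 17.3 and 5.69 CPM (4.24 ± 0.46). In both, the lowest Upf1-TAP library is several times the highest Rpl16a-TAP library.

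YHR214W-A (4.45), YAR068W (4.45), YLL053C (4.09), PET18 (3.98), YIR042C (3.96), NDJ1 (3.78), YCR102C (3.74), YJR149W (3.70), YNL162W-A (3.69) and ATG40 (3.68) complete the 12 largest rises. NDJ1 acts at meiotic telomeres, and ATG40 is a receptor for autophagy of the endoplasmic reticulum.

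**Figure D3:**
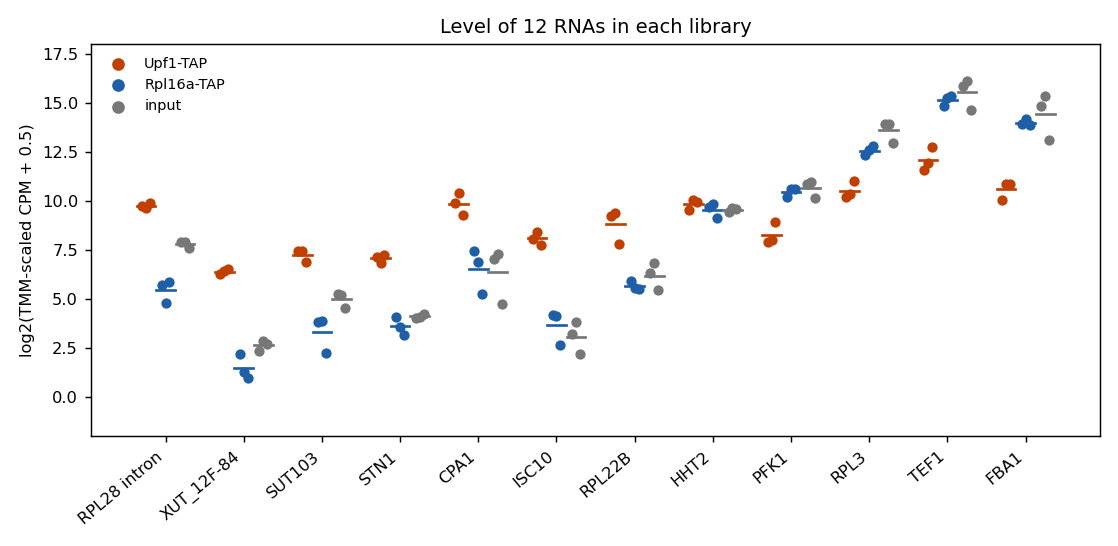
Level of 12 RNAs in each library of Upf1-TAP, Rpl16a-TAP and input, as log2(TMM-scaled CPM + 0.5), with a short line at the mean of 3 libraries. From RPL28 intron to RPL22B every Upf1-TAP point lies above every Rpl16a-TAP point, from PFK1 to FBA1 every one lies below, and for HHT2 the groups overlap.

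mRNAs of abundant proteins were lower with Upf1. In glycolysis and fermentation 17 of 18 genes fell and 0 rose (median −2.50; 17 without Rpl16a-TAP replicate 3). Under total count scaling the median stayed below 0 (−1.04), but only 3 of the 18 fell and 0 rose. FBA1, aldolase, had 1068, 1880 and 1835 CPM with Upf1 and 15383, 18231 and 15191 CPM with Rpl16a (−3.35 ± 0.62). PDC1 (−3.07), the main pyruvate decarboxylase, ADH1 (−3.26), the main alcohol dehydrogenase, CDC19 (−2.98), pyruvate kinase, and GPM1 (−2.87), phosphoglycerate mutase, fell too.

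PFK1, a subunit of phosphofructokinase, had 236, 259 and 481 CPM against 1174, 1555 and 1575 CPM (−2.14 ± 0.37, adjusted p = 0.00036), and PFK2 had −2.09 ± 0.42. The exception was the glucokinase gene GLK1 (−1.39 ± 0.60, adjusted p = 0.071, and 0.0025 with a replicate block). The hexokinase gene HXK1 had the largest fall of all abundant reading frames, with 4.64, 4.42 and 7.37 CPM against 47.6, 91.7 and 93.8 CPM (−3.82 ± 0.83). The other large falls were in GRE2 (−3.33), a reductase gene, YNL208W (−3.30, and −2.46 without Rpl16a-TAP replicate 3), ZUO1 (−3.21), a chaperone on the ribosome, YPT7 (−3.20), a GTPase of vacuole fusion, and POL30 (−3.20), the sliding clamp of DNA replication.

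Of 135 cytoplasmic ribosomal protein genes, 110 fell and 1 rose (median −2.23; 111 and 1 without Rpl16a-TAP replicate 3). Under total count scaling 6 fell and 3 rose (median −0.78). RPL3 had 1189, 1318 and 2036 CPM with Upf1 and 5086, 6243 and 7010 CPM with Rpl16a (−2.01 ± 0.46). RPS17A (−3.70 ± 0.77) and RPS31 (−3.38 ± 0.69), which encodes a ubiquitin fusion, fell most, with −2.45 and −2.80 without Rpl16a-TAP replicate 3. The abundant RPS1B had −2.53 and RPL10 −2.49. Without replicate 1 of both purifications 71 genes fell. The gene that rose was RPL22B, the minor paralog of RPL22A, with 607, 677 and 226 CPM against 59.0, 46.3 and 45.5 CPM (3.32 ± 0.48, adjusted p = 0.00011).

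Translation factors fell in 24 of 30 cases and rose in 0 (median −1.97; 24 without Rpl16a-TAP replicate 3). Under total count scaling 2 fell and 1 rose (median −0.54). TEF1, which encodes the elongation factor eEF1A and shares nearly all its sequence with TEF2, had 3028, 3929 and 6908 CPM against 29482, 38205 and 42270 CPM (−2.99 ± 0.63). YEF3, the fungal elongation factor 3, had −2.06 ± 0.51, and FUN12, the initiation factor that joins the subunits, had −3.20 ± 0.37. In ribosome biogenesis 29 of 32 genes fell and 0 rose (median −1.68; 29 without Rpl16a-TAP replicate 3). NOP56 of the box C/D snoRNPs had −2.29 ± 0.33 and NOP7 of the large subunit precursor −2.24 ± 0.41. Under total count scaling 0 of the 32 fell and 0 rose (median −0.31).

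Chaperone genes fell in 14 of 20 cases (12 without Rpl16a-TAP replicate 3, and 9 without replicate 2 of both purifications), with SSA2 at −2.61 ± 0.57 and SIS1, its partner, at −2.83 ± 0.60, and 1 rose, the heat-induced SSA3 (1.89 ± 0.36). Genes of amino acid synthesis fell in 41 of 60 cases (39 and 27 with the same libraries left out), with ASN1 (−2.87), ILV3 (−2.84) and LEU1 (−2.64). In that list 4 rose, of which ARG8, of arginine synthesis, had 242, 249 and 176 CPM against 32.2, 34.9 and 27.0 CPM (2.81 ± 0.41). Under total count scaling 0 chaperone genes fell and 4 rose (median −0.38). For amino acid synthesis 2 fell and 11 rose under that scaling (median −0.23).

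Mitochondrial ribosomal protein genes fell in 49 of 69 cases (42 without Rpl16a-TAP replicate 3), genes of oxidative phosphorylation in 20 of 34 (21), ergosterol genes in 14 of 23 (12) and cell wall genes in 9 of 24 (10). Without replicate 1 of both purifications these 4 counts were 26, 13, 5 and 3, and without replicate 2 of both they were 27, 12, 4 and 4. Ergosterol genes that fell numbered 9 without replicate 3 of both, 9 without Rpl16a-TAP replicate 2, and 7 and 8 without Upf1-TAP replicates 1 and 2. Without Upf1-TAP replicate 1, 29 mitochondrial ribosomal protein genes fell, and without Rpl16a-TAP replicate 1 or 2, 5 cell wall genes. In the main fit the cell wall share that fell was 37.5%, near the 28.4% of all reading frames and exons. QCR9 rose among the respiratory genes (1.26 ± 0.43, but adjusted p = 0.058 without Rpl16a-TAP replicate 3). Total count scaling includes ribosomal RNA, which took 67.7% of Rpl16a-TAP replicate 3, and was not repeated without that library. The medians of these 4 lists were −1.46, −1.56, −1.13 and −0.95, and under total count scaling they were 0.05, 0.01, 0.41 and 0.42, so that their direction depends on the scaling. CWP2, a cell wall mannoprotein, kept its sign, with 160, 185 and 35.9 CPM against 1698, 1898 and 323 CPM (−3.37 ± 0.80).

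Core histone genes fell in 5 of 8 cases and rose in 0 (median −1.50; 0.06 under total count scaling; 5 without Rpl16a-TAP replicate 3). Without replicate 1 of both purifications 1 fell, and without replicate 2 of both, or without Upf1-TAP replicate 1 or 3, it was 3. HTA1 had 71.9, 96.4 and 50.5 CPM against 486, 509 and 313 CPM (−2.58 ± 0.41), and HTB1 (−2.72 ± 0.91), HHT1 (−1.94 ± 0.53), HHF2 (−1.53 ± 0.46) and HTA2 (−1.47 ± 0.47) fell too. The HTA2 call was lost without Rpl16a-TAP replicate 3 (adjusted p = 0.077). HHF1 had −0.91 ± 0.41 (adjusted p = 0.083, and 0.0099 with a replicate block), HTB2 −0.54 ± 0.67 (adjusted p = 0.54) and HHT2 0.27 ± 0.37 (adjusted p = 0.57). HHT2 had 738, 1041 and 997 CPM with Upf1 and 833, 907 and 553 CPM with Rpl16a, so that it overlapped where its paralog HHT1 did not.

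The baits' own mRNAs did not pass the test in either direction. The NAM7 reading frame had 110, 114 and 132 CPM with Upf1 and 181, 194 and 209 CPM with Rpl16a (−0.71 ± 0.36, adjusted p = 0.12), without overlap. The RPL16A exons had 290, 401 and 60.0 CPM with Upf1 and 406, 456 and 196 CPM with Rpl16a (−0.50 ± 0.71, adjusted p = 0.59). The untagged paralog RPL16B had 323, 485 and 260 CPM against 2247, 2773 and 1343 CPM (−2.58 ± 0.51), close to the other ribosomal protein genes.

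Among mRNA decay and NMD factors 17 of 29 fell and 2 rose, and the median of −1.36 turned to 0.25 under total count scaling. The number that fell was 17 without Rpl16a-TAP replicate 3, 11 without Rpl16a-TAP replicate 2, and 10 or 7 without replicate 1 or 2 of both purifications. NMD4, a protein bound to Upf1, with 78.0, 142 and 104 CPM against 17.6, 21.0 and 14.2 CPM (2.58 ± 0.41), was among those that rose, without overlap between the groups. The decapping activator DCP1 had −2.52 ± 0.46, the exonuclease gene XRN1 −1.48 ± 0.30, and the decapping enzyme gene DCP2 0.57 ± 0.48 (adjusted p = 0.35).

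The level of an mRNA in the total extract, which was measured in other libraries, went with the direction of change. Below a mean of 5 CPM in input, 309 of 599 reading frames rose (51.6%) and 19 fell, and of the 520 with enough reads outside Upf1-TAP 270 rose. Between 20 and 80 CPM, 289 of 2174 rose (13.3%) and 604 fell (27.8%). In the class with the highest level in input, 0 of 170 rose and 151 fell (88.8%), with a median of −2.24 that lies near those of the glycolytic and ribosomal protein genes.

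Across 5676 reading frames, Pearson's r between the log2 fold change and log2 input level was −0.588 and Spearman's rho −0.553. With protein length they were −0.0361 and 0.00569. Genes are not independent replicates, and the fold changes all share the same 6 libraries.

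**Figure D4:**
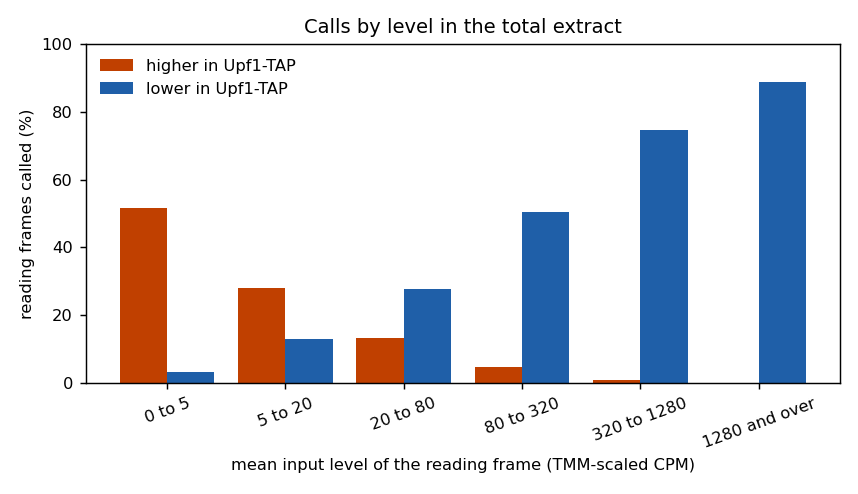
Share of reading frames called higher (orange) or lower (blue) in Upf1-TAP, in percent, by mean level in input. The share called higher goes from 51.6% in the lowest class to 0% in the highest, and the share called lower from 3.17% to 88.8%.

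Within a gene, the untranslated regions were higher relative to the reading frame with Upf1. The 3′ untranslated region had the larger log2 fold change in 3221 of 3908 genes, with a median difference of 0.52, and the 5′ region in 971 of 1463 (median 0.44). Some regions had enough reads only through Upf1-TAP, and without them the counts were 3037 of 3627 (median 0.52) and 698 of 1142 (median 0.26). Reads on 3′ regions made up 8.75%, 9.10% and 9.18% of the Upf1-TAP libraries and 4.34%, 3.52% and 0.810% of the Rpl16a-TAP libraries. These are shares of all reads, of which ribosomal RNA took 67.7% in Rpl16a-TAP replicate 3. Among the most abundant, the RPL8A 3′ region had 1065, 1783 and 1997 CPM with Upf1 and 158, 171 and 148 CPM with Rpl16a (3.34 ± 0.49), without overlap.

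Beside input, the 2 purifications lay on either side for some classes. Introns of ribosomal protein genes had a median log2 fold change of 0.84 for Upf1-TAP over input and −1.80 for Rpl16a-TAP over input, and for XUT these were 1.28 and −1.07. Cytoplasmic ribosomal protein mRNAs had −3.22 and −1.02 over input, where 12 of 135 were lower with Rpl16a, but −1.14 and 1.07 over the control purification, so that the sign for Rpl16a-TAP depends on the background taken. For the introns the medians over the control were 1.47 and −1.1, and for XUT 2.15 and −0.27. The comparisons with 1 background share its libraries.

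Among other RNAs, 13 of 29 features of Ty elements, the retrotransposons of yeast, rose and 0 fell. The number that rose was 18 without Rpl16a-TAP replicate 3, 4 without Rpl16a-TAP replicate 2, and 6, 3 and 7 without replicates 1, 2 and 3 of both purifications. Over the control purification the median of these features was −0.30 for Upf1-TAP, with 3 higher, and −1.87 for Rpl16a-TAP.

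Structural RNAs gave calls that depended on single libraries. Of 95 tRNA features 15 fell and 2 rose, with 0 that fell without Rpl16a-TAP replicate 3 and 48 with a replicate block. Leaving out other libraries gave 0 to 39 that fell. Of 38 snoRNA and snRNA features 1 fell and 0 rose (median −1.60), with 0 that fell without Rpl16a-TAP replicate 3 and 18 with a replicate block. Of 17 ribosomal RNA features, which depletion removes, 5 fell, with 0 without Rpl16a-TAP replicate 3 and 11 with a replicate block. Of 14 RNAs encoded in mitochondria 0 passed the test in either direction, and 1 was lower with a replicate block.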

How the data were processed

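The deposited counts are raw reads per feature, made by the authors with cutadapt 1.16, STAR 2.7 and featureCounts of Subread 1.6.2 per the submitters' processing notes. No scaling was applied to them, and some near-identical genes carry equal counts. The 23521 features cover reading frames, exons, introns, untranslated regions and non-coding RNAs.

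A quasi-likelihood model over the 18 libraries (edgeR 4.0.16 under R 4.3.3, TMM factors, glmQLFTest) gave the contrast. Features had at least 10 reads in at least 3 libraries, and p-values were adjusted by Benjamini-Hochberg at 0.05. The SE follows from the fold change and its F statistic. The intron to exon ratio used limma 3.58.1 with 0.5 added to both counts, over introns and exons that passed the same filter. DESeq2 1.42.0, other scalings and filters, a replicate block and leaving out libraries were the alternatives. Floors of 3 reads cover counting error only. Sequences and stop codons were read from RefSeq R64 with Python 3.11.15, and the procedure was tested on simulated data.

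Genes were named by rule: baits, transcripts the study names, the 12 largest changes in each direction with a mean of at least 20 CPM and no overlap (4 among non-coding RNAs, at 2 CPM), members of short lists, up to 5 abundant members and the largest changes of the others, and the introns with the most reads or the largest changes. The comparison and lists were chosen with earlier results of these data known, and the lists were not tested as sets. The values of 1 gene of the decay list are not reported here.

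Replicates are independent experiments according to the legend of the study's dataset of counts. Deviations from the group mean of Upf1-TAP and Rpl16a-TAP libraries with the same number correlated at 0.53, 0.40 and 0.57, but replicates 1 and 2 correlated across numbers too (0.41 and 0.38). These values set replicate 3 apart from 1 and 2 and do not establish pairs. The main model has no block, as fixed in the design, and the permutation test of RPL28 treats the libraries as unpaired. The blocked fit, which takes the numbers as pairs, is an alternative.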

Additional observations from a re-analysis of the deposited data

How the results depend on the processing

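Under total count scaling 6307 features were higher and 54 lower, and a minimum of 10 reads in all 6 libraries left 976 and 768. With a replicate block in the 6 libraries alone 3372 were lower and 4136 higher, and with the block in all 18 libraries 3206 and 3822. Leaving out 1 library or 1 replicate number gave 1391 to 2955 higher and 1009 to 2178 lower. Fewest were called higher without replicate 2 of both purifications (1391) and of Rpl16a-TAP alone (1867), and without replicate 1 of both 1644 were higher and 1049 lower. Without Upf1-TAP replicate 1, 1432 were lower. For the intron to exon ratio, 59 to 65 introns were higher and 0 to 1 lower when libraries were left out, and with 10 intron reads in each of the 6 libraries only 3 introns remained for the test, 1 higher and 0 lower. RLE size factors, DESeq2, no filter on low counts, the 6 libraries alone and leaving out ribosomal RNA kept both counts within 1.5 times. The sign turned under total count scaling for HTB2 (0.75), HTA2 (0.24), HHF1 (0.47), RIF1 (0.51), GLK1 (0.42), the exons of RPL28 (0.14) and RPL16A (0.89) and the NAM7 frame (0.81). With 10 reads in each library it turned for HTB2 (0.22) and RPL16A (0.26), and without Rpl16a-TAP replicate 3 for the GCR1 ratio (0.21, in a range of −0.87 to 0.21 over the libraries left out). The cause was not tested. Among the RNAs named, the block in all 18 libraries changed no call other than those of SPT10, CCW22, GLK1 and HHF1. With 3 libraries in a group, low RNAs had the least precision.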

Other observations

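The distance of reading frames from chromosome ends was described after the data had been seen, with no test. Within 10 kb of an end 78 of 100 frames were higher (78%) and 2 lower, with a median log2 fold change of 1.68, and without the seripauperins 67 of 89 were higher. Between 10 and 20 kb 75 of 120 were higher, between 20 and 30 kb 49 of 132, and beyond 100 kb 691 of 4270 (16.2%). The median level in input was 7.88 CPM within 10 kb and 31.6 CPM beyond 100 kb, and its part in this pattern was not tested.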
